A study of Mus musculus with 11 samples.

Results

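The S100 genes encode small calcium-binding proteins, and 10 of them are described here in epithelial cells selected from fetal mouse lung with and without Prdm3 and Prdm16. The genes are S100a1, S100a4, S100a6, S100a8, S100a9, S100a10, S100a11, S100a14, S100a16 and S100g. They were taken by gene symbol, 10 of the 24421 rows of the count table. S100 proteins carry a pair of EF-hand loops, usually act as dimers, and on binding calcium expose a surface that grips other proteins, annexins among them. Some act inside the cell on the cytoskeleton, membranes or ion channels, and others are secreted and signal to receptors such as RAGE, the product of Ager. In the lung, S100 proteins are best known from the airway lining and from the inflammatory cells that enter the tissue.

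The study asked how loss of both PR-domain zinc-finger genes in the lung epithelium changes its transcripts shortly before birth. Lungs were taken at E17.5, dissociated with enzymes, and cells bearing the epithelial surface protein EpCAM were kept on magnetic beads. Poly(A) RNA was sequenced from 6 libraries labelled Control and 5 labelled PRDM3/16KO, called knockout below. The knockout joins loxP-flanked (floxed) Prdm3 and Prdm16 alleles with the ShhCre allele. In ShhCre the recombinase is inserted at the Shh gene and acts in cells that have expressed Shh, in the lung the epithelium. Per the labels' protocols the fathers were Prdm3fl/flPrdm16fl/wtShhCre+ and the mothers Prdm3fl/flPrdm16fl/fl, so pups of that cross carry floxed Prdm3 on both chromosomes whether or not they carry Cre. The labels give the Control animals no Prdm3, Prdm16 or Cre genotype of their own and name no litter, sex or batch. Whether each of the 11 libraries is a different animal is not stated either. The spread that the tests use is therefore that of libraries, and some of it may be technical.

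Totals ran from 6065906 to 7869787 counts per library. Prdm16 was at 202 ± 21.9 CPM (counts scaled to library size; SD, n = 6) in Control and 166 ± 12.2 CPM (n = 5) in the knockout, and Mecom, the present symbol of Prdm3, was at 219 ± 9.99 and 340 ± 16.0 CPM. The Prdm16 ranges overlapped and Mecom was higher in every knockout library. The counts cover whole genes and cannot show the loss of single exons, so they do not check the labels, and the groups are named here as labelled. Epcam stood at 252 ± 25.3 and 261 ± 10.8 CPM, and the 7 epithelial markers examined summed to 5417 to 6159 CPM in Control and 5442 to 5927 CPM in the knockout, with 0 of 7 higher and 3 lower. The 8 alveolar type 2 markers all fell, their sum going from 7020 to 12240 down to 2445 to 3710 CPM, and 3 of 9 alveolar type 1 markers rose and 1 fell. Alpha- and beta-globin genes (Hba-a1, Hba-a2, Hbb-bt, Hbb-bs) were at 0 in every library.

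Of the 10 S100 genes, 9 passed the filter on low counts; S100a4 did not. By edgeR's quasi-likelihood test with Benjamini-Hochberg adjustment over 13916 genes, 6 of the 9 rose in the knockout, 2 fell and 1 did not pass. The profile as a whole moved widely: 42.9% of tested genes were called, 21.1% higher and 21.8% lower, and 6.92% were higher by at least 2-fold, as were 4 of the 9 S100 genes. All 8 called S100 genes had CPM ranges that did not overlap between the groups, 6 above and 2 below, which held for 28.5% of tested genes, 14.2% with the knockout above and 14.2% with it below. The median log2 fold change was 0.94 over the 9 genes and 0.0023 over all genes tested. S100a8 and S100a9 passed the filter through the knockout libraries and could hardly have been tested without being higher there. Their place in these counts and this median was thus largely set by the filter, and the counts and the median are descriptions only. Fitted without the filter, their log2 fold changes were 3.92 and 3.905. The same counts enter that fit, so it is no separate evidence on the size of their change. In these bulk libraries, fewer cells of a type and less RNA per cell cannot be told apart.

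Promoter sequences are shown for the S100 genes that changed and have an entry in RefSeq's promoter table (build GRCm38.p6, the sequence of mm10), so that their upstream letters can be read beside the values that follow. The table held 8 of the 10 genes; S100a10 and S100a14 had no entry. Each sequence runs 5′ to 3′ on the gene's strand over 250 bases before RefSeq's start, stopping earlier where GENCODE places the gene's first exon. Capitals mark matches to 6 short motifs, searched on both strands: TATAAA (the TATA box), TGANTCA (AP-1), TTGCNNAA (C/EBP), CAAGTG (NKX2-1), and AAGATAA and GATGAG, core letters bound by the first and second zinc-finger domains of PRDM3. No motif matches overlapped another in these windows.
S100a9, chr3:90695722-90695971, minus strand: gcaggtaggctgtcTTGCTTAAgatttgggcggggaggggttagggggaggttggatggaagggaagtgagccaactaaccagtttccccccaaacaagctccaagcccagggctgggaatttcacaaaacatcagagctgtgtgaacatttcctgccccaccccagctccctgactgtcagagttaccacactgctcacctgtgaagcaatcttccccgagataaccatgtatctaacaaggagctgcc
S100a8, chr3:90668821-90668977, plus strand: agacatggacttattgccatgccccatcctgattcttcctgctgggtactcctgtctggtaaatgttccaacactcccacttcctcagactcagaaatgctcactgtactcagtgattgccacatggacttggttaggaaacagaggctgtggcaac
S100a6, chr3:90612644-90612881, plus strand: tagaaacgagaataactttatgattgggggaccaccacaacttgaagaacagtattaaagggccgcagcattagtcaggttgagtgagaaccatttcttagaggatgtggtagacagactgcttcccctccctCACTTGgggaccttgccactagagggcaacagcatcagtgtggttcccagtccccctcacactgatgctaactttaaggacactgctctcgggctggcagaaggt
S100a16, chr3:90537004-90537253, plus strand: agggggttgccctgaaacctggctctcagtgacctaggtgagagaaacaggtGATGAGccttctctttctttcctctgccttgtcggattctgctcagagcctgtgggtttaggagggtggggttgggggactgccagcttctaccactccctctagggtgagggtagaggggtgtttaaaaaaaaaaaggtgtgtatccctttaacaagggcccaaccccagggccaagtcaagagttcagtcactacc
S100a11, chr3:93520246-93520487, plus strand: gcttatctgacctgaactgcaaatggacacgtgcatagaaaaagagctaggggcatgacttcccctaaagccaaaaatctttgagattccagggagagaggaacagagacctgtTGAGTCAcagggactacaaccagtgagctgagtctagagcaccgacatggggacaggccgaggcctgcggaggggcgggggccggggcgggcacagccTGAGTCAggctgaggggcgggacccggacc
S100g, chrX:162964600-162964849, minus strand: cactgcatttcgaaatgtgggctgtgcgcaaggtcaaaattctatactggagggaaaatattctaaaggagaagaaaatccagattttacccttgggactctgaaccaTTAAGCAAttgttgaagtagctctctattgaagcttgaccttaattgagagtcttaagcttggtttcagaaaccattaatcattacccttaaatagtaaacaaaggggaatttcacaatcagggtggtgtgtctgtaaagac

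S100a11 held 2 AP-1 matches, at 136 to 130 and at 38 to 32 bases before its start; 6.75% of 32851 promoter windows of the same length held at least 1. S100a9 and S100g each held a C/EBP match, 236 to 229 and 142 to 135 bases before the start, as did 9.56% of windows. S100a6 held an NKX2-1 match (117 to 112 bases before the start; 11.6% of windows) and S100a16 a GATGAG match (198 to 193 bases; 10.1% of windows). A second S100a16 entry, not printed, held an AP-1 match 192 to 186 bases before its own start. S100a8 had a TATA box 30 to 25 bases before RefSeq's start, in the stretch GENCODE counts as exon and therefore not printed; 12.4% of windows held one. AAGATAA was in none of these windows and in 3.1% of all. A match is a run of letters and not a measured binding site.

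S100a14 and S100a10 showed the largest changes among the S100 genes that were well counted in both groups. S100a14 is found mainly in epithelia (chromosome 3, 90526856 to 90528837, plus strand; mm10, GENCODE M21). In Control libraries it ran from 71.9 CPM through a median of 108 to 139 CPM, and in the knockout it was at 355, 349, 304, 367 and 301 CPM. The lowest knockout library was more than 2-fold above the highest Control library. Its mean went from 106 ± 24.0 to 335 ± 30.7 CPM (SD, n = 6 and 5), or 1.67 on the log2 scale with an SE of 0.14 (adjusted p = 2.91e-07 in edgeR), a 3.17-fold rise. Control libraries 5 and 6 were the lowest, at 86.6 and 71.9 CPM, and without them the log2 fold change was 1.49.

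S100a10, also called p11, forms a complex with annexin A2 at the inner face of the plasma membrane and does not depend on calcium for it (chromosome 3, 93555080 to 93564643, plus strand). It was counted at 44.8 to 64.5 CPM in Control libraries, with a median of 52.9, and at 143, 137, 128, 142 and 121 CPM in knockout libraries. The groups did not come near each other. The mean rose from 53.3 ± 6.71 to 134 ± 9.37 CPM (log2 fold change 1.33, SE 0.083; edgeR, adjusted p = 7.34e-09), 2.52-fold.

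S100a6 and S100a16 rose less. S100a6, or calcyclin, binds the ubiquitin-pathway protein encoded by Cacybp and several annexins (chromosome 3, 90612882 to 90624181, plus strand). It ran from 25.3 through a median of 34.0 to 53.7 CPM in Control libraries and was at 72.1, 77.5, 66.7, 65.5 and 64.5 CPM in knockout libraries. Control library 4, at 53.7 CPM, was the nearest to the knockout range. The mean went from 36.3 ± 9.81 to 69.3 ± 5.47 CPM (0.94, SE 0.15; edgeR, adjusted p = 1.26e-04). S100a16 is broadly expressed across tissues (chromosome 3, 90537254 to 90543151, plus strand). It was at 85.2 to 104 CPM in Control, median 94.1, and at 134, 129, 137, 143 and 128 CPM in the knockout. Its change was the smallest of the 6 increases, from 93.8 ± 7.77 to 134 ± 6.26 CPM (0.52, SE 0.064; edgeR, adjusted p = 1.05e-05), and the groups did not overlap.

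Markers of other cell types moved alongside these increases. All 5 mesothelial markers rose, with a summed level of 154 to 292 CPM in Control and 437 to 555 CPM in knockout libraries. Of 10 mesenchymal markers 9 were tested and 6 rose (253 to 426 and 405 to 743 CPM), and 6 of 10 macrophage markers rose (31.5 to 117 and 82.5 to 335 CPM). No marker of these 3 lists was at 0 throughout. Lists of epithelial cell types moved too. Of 6 neuroendocrine markers 5 were tested and all 5 rose (22.73 to 47.85 and 521 to 648 CPM). Of 7 airway secretory and basal markers 3 rose and 1 fell. Of 7 endothelial markers 6 were tested, 3 rose and 1 fell. Over all tested genes 21.1% rose and 21.8% fell, and the list counts are a description only. The part of any of these cells in the S100 values was not tested.

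**Figure D1:**
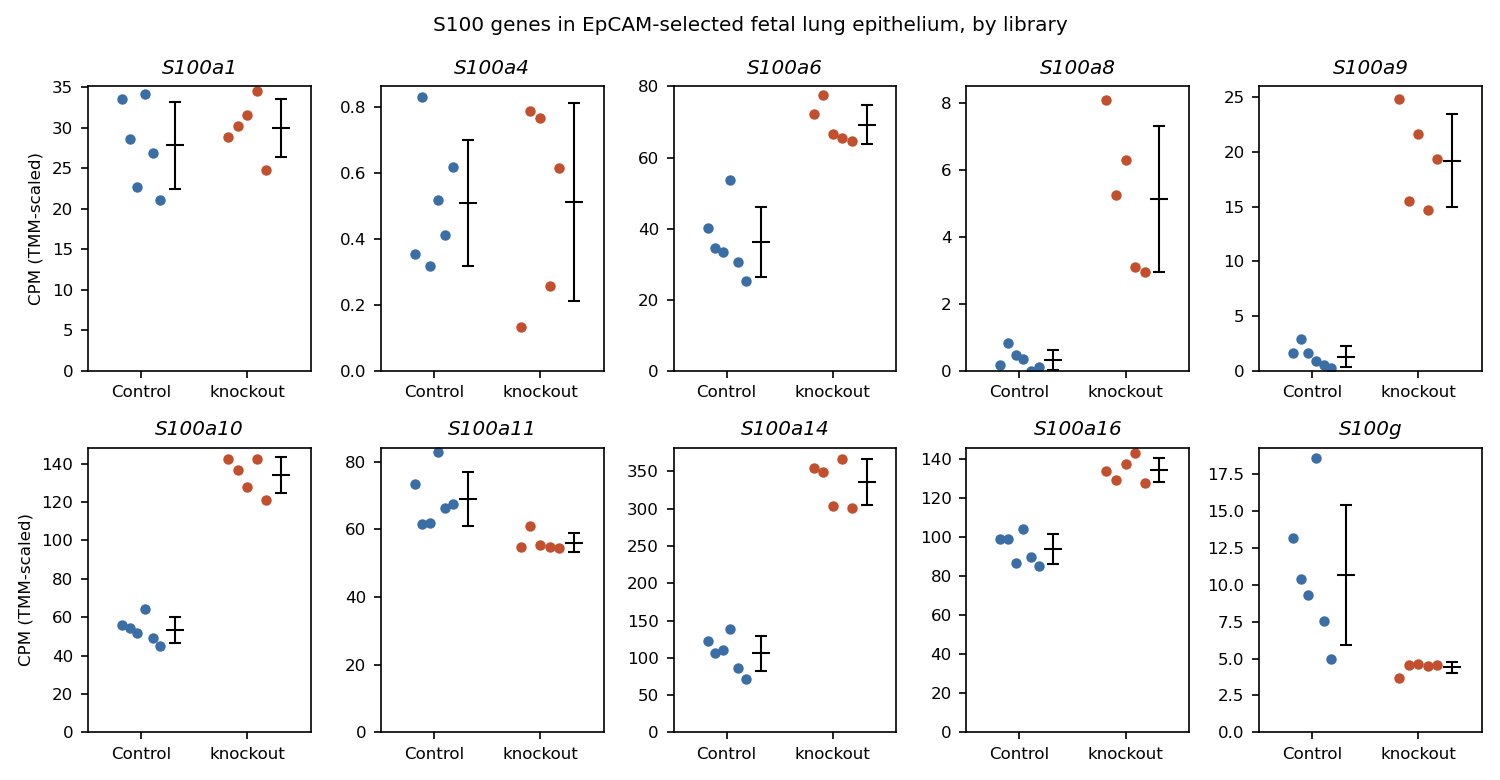
CPM of each of the 10 S100 genes by library, with 6 Control libraries in blue and 5 knockout libraries in red; the bar beside each group is the mean ± SD, and each panel has its own axis from 0. S100a14, S100a10, S100a6, S100a16, S100a8 and S100a9 lie higher in all 5 knockout libraries than in any Control library, S100a11 and S100g lie lower, and S100a1 and S100a4 overlap.

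S100a8 and S100a9 had the largest ratios and the lowest Control counts. The 2 proteins pair as calprotectin, a metal-binding defence protein that neutrophils hold in large amounts and that stressed surface epithelia can also make. S100a9 (chromosome 3, 90692632 to 90695721, minus strand) had 9, 21, 10, 5, 4 and 2 counts in Control libraries 1 to 6 and 187, 118, 169, 114 and 157 counts in knockout libraries 1 to 5. S100a8 (chromosome 3, 90668978 to 90670035, plus strand) had 1, 6, 3, 2, 0 and 1 counts in Control and 61, 40, 49, 24 and 24 counts in the knockout. Both were thus close to absent from Control libraries and low but plainly counted in every knockout library. S100a9 rose from 1.29 ± 0.960 to 19.2 ± 4.23 CPM (log2 fold change 3.90, SE 0.33; edgeR, adjusted p = 3.72e-07) and S100a8 from 0.326 ± 0.299 to 5.13 ± 2.177 CPM (3.91, SE 0.47; edgeR, adjusted p = 7.39e-06). The filter asks for about 10 counts in at least 5 libraries. S100a8 reached 10 counts in 0 Control libraries and S100a9 in 2, so both passed it through the knockout libraries and could hardly have passed without being higher there.

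Neutrophil markers moved with this pair. Of the 13 genes of the neutrophil list, 6 passed the filter, 5 of them rose and 0 fell. Of the 13, 9 had higher CPM in all knockout than in all Control libraries. Over all tested genes 21.1% rose, and 14.2% had the knockout range above that of Control. The 5 list genes that rose reached 10 counts in all 5 knockout libraries. They did so in only 0 (Mmp8) to 3 (Ltf, Mmp9) of the Control libraries, so they too passed the filter through the knockout. The 9 include Camp, Retnlg, Cxcr2 and Csf3r, which were below the filter. Both counts are a description only. The granule protein gene Ngp rose from 0.745 ± 0.636 to 20.8 ± 4.66 CPM (4.77; edgeR, adjusted p = 2.64e-08), a level close to that of S100a9. Ltf, which encodes lactoferrin, rose from 1.71 ± 1.12 to 8.58 ± 2.65 CPM (2.36), and Mmp8 (3.17), Itgam (2.29) and Mmp9 (1.65) rose as well. Below the filter, Camp had 7 counts in all Control and 39 in all knockout libraries, Retnlg 5 and 56, Cxcr2 8 and 78, and Csf3r 13 and 66. The primary-granule genes Elane and Mpo had 0 and 3 counts over all 11 libraries, and Prtn3 did not pass, at 1.44 ± 0.583 and 1.21 ± 0.488 CPM. The summed level of the list was 4.82 to 11.6 CPM in Control and 41.0 to 61.3 CPM in knockout libraries, again without overlap. Its part in the S100a8 and S100a9 values was not tested. Within groups, deviations of log2 CPM of S100a9 from the group mean followed those of Ngp (r = 0.777) and S100a8 (r = 0.715) over the 11 libraries. For the other tested genes of the list, r was 0.708 for Itgam, 0.677 for Mmp8, 0.632 for Ltf and 0.453 for Mmp9. For Prtn3 it was -0.439. These values are a description in which all points share library depth.

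**Figure D2:**
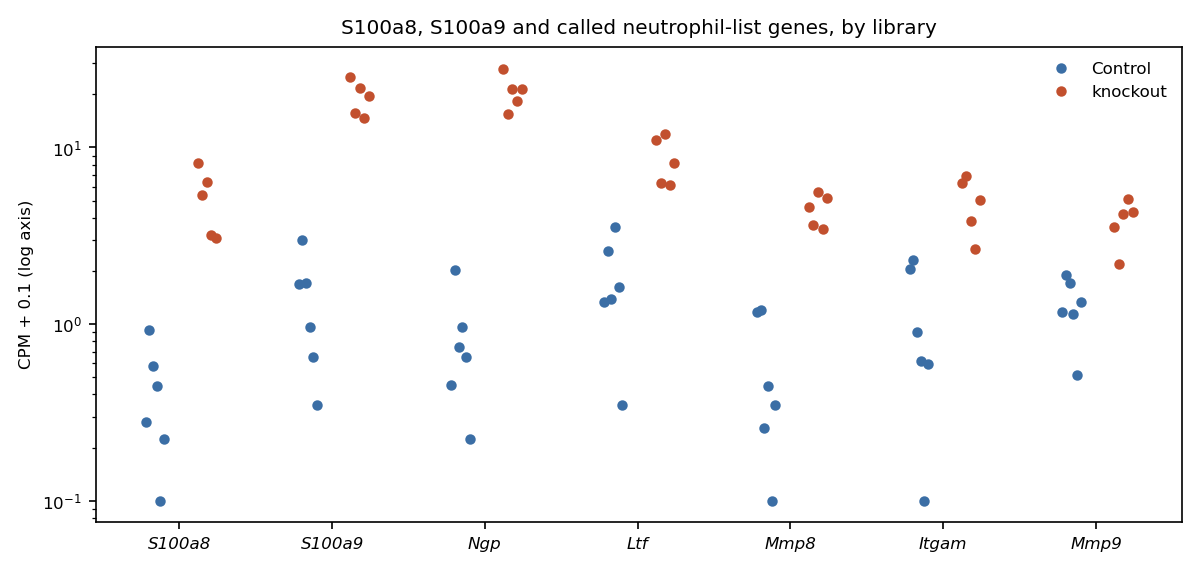
CPM + 0.1 on a log axis for S100a8, S100a9 and the 5 called genes of the neutrophil list, with 6 Control libraries in blue and 5 knockout libraries in red. For each of the 7 genes every knockout library lies above every Control library, and S100a9 and Ngp reach similar levels, with knockout means of 19.2 and 20.8 CPM.

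S100a11 and S100g were the 2 members that fell. S100a11, or calgizzarin, is a partner of annexin A1 (chromosome 3, 93520488 to 93526287, plus strand). It ran from 61.7 through a median of 67.0 to 82.7 CPM in Control and was at 54.8, 61.0, 55.3, 54.8 and 54.4 CPM in the knockout. Knockout library 2, at 60.96 CPM, came within 1 CPM of the lowest Control library, at 61.68 CPM. The mean was 69.0 ± 8.01 CPM in Control and 56.1 ± 2.76 CPM in the knockout (log2 fold change -0.30, SE 0.079; edgeR, adjusted p = 0.0066). This decrease was not called when libraries were scaled by total count alone (-0.19; edgeR, adjusted p = 0.0635). Nor was it called with the level of mesenchymal markers as a covariate (-0.30, SE 0.126; edgeR, adjusted p = 0.104). That covariate, a mean log2 CPM, ran from 3.62 to 4.55 in Control and from 4.58 to 5.44 in knockout libraries. Its ranges did not overlap, so this fit can hardly separate it from genotype. The log2 fold change stayed the same and its SE grew. A processed S100a11 pseudogene lies on chromosome 12 (73961142 to 73961447), and how reads matching both were counted is not given in the sources used here.

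S100g encodes calbindin-D9k, which carries calcium through the cytoplasm of absorbing epithelia and in the gut is induced through the vitamin D receptor (chromosome X, 162961992 to 162964599, minus strand). Control libraries 1 to 6 were at 13.1, 10.4, 9.27, 18.5, 7.57 and 4.94 CPM and knockout libraries at 3.71, 4.60, 4.61, 4.50 and 4.56 CPM. Control libraries thus spread over a wide range whose low end, library 6, nearly met the narrow knockout range. Control library 6 had 40 counts and knockout libraries 1 to 5 had 28, 35, 36, 35 and 37. At such counts the gap between the ranges is within counting error. The mean fell from 10.6 ± 4.75 to 4.40 ± 0.385 CPM (log2 fold change -1.25, SE 0.28; edgeR, adjusted p = 0.00212). S100g is X-linked, and libraries differed in Y-linked transcripts: Control libraries 1, 3, 4 and 5 and, of the knockout, library 4 alone held them at high levels. Among the 6 libraries with low Y-linked transcripts its log2 fold change was -0.80 (edgeR, adjusted p = 0.0709), and among the 5 with high ones, a set with 1 knockout library assumed to vary like the others, it was -1.42 (edgeR, adjusted p = 0.0962). With the Y-linked level as a covariate the decrease was called (-1.01; edgeR, adjusted p = 0.0168). With the mesenchymal level, whose ranges did not overlap between the groups, it was not (-0.96, SE 0.44; edgeR, adjusted p = 0.144). The S100a11 values in the same sets were -0.20 and -0.38 (edgeR, adjusted p = 0.119 and 0.227), and the S100a6 values were 1.23 (edgeR, adjusted p = 1.81e-04) and 0.72 (edgeR, adjusted p = 0.0937).

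S100a1 and S100a4 showed no called difference. S100a1, known from heart muscle as a partner of the calcium pump SERCA, was at 21.1 to 34.2 CPM in Control, median 27.7, and at 28.9, 30.2, 31.6, 34.5 and 24.8 CPM in the knockout (chromosome 3, 90511034 to 90514392, minus strand). The ranges overlapped almost fully and the log2 fold change was 0.11 (SE 0.13; edgeR, adjusted p = 0.498). S100a4, a marker of some fibroblasts and macrophages, had 21 counts in Control and 20 in the knockout, at most 6 in any library. Fitted without the filter its log2 fold change was -0.0060 (SE 0.48; edgeR, adjusted p = 0.993), an SE too wide to detect a modest change at this depth. Its exons share bases with another annotated gene on the same strand, Gm42674, and reads there may have been left out of both.

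Scaled by exon length, the order of the S100 transcripts changed. The length is the union of all annotated exons of a gene and not that of the transcript made, so the order depends partly on the annotation. In Control libraries S100a11 led at 135 ± 15.7 CPM per kilobase and its range met no other. It was followed by S100a14 (61.3 ± 13.9), S100a16 (58.0 ± 4.81), S100a10 (44.0 ± 5.53), S100a1 (40.1 ± 7.78), S100a6 (26.6 ± 7.18) and S100g (22.2 ± 9.89), each overlapping the next. S100a9 (2.48 ± 1.84), S100a4 (0.872 ± 0.328) and S100a8 (0.470 ± 0.431) came last, clear of S100g but not of each other. In knockout libraries S100a14 led at 194 ± 17.8 CPM per kilobase, clear of S100a10 (111 ± 7.73) and S100a11 (110 ± 5.41), which overlapped. S100a16 (83.0 ± 3.87) stood apart from both neighbours, S100a6 (50.7 ± 4.00), S100a1 (43.2 ± 5.15) and S100a9 (36.8 ± 8.10) overlapped in turn, and S100g (9.16 ± 0.802) and S100a8 (7.40 ± 3.14) overlapped above S100a4 (0.878 ± 0.515). As plain CPM, the 10 genes summed to 322 to 498 in Control and 721 to 830 in knockout libraries, and S100a14 made up 22.3% to 29.1% and 40.2% to 44.3% of those sums.

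The S100 genes outside the 10 were scarce. S100a13 (343 and 286 counts over Control and knockout libraries), S100a3 (88 and 88) and S100b (62 and 60) were tested and not called, with log2 fold changes of -0.23, 0.024 and -0.019 (edgeR, adjusted p = 0.252, 0.955 and 0.974). S100a3 shares exon bases with 2 other annotated genes. S100a7a had 23 and 46 counts, S100a2 18 and 15, S100z 2 and 0, and S100a5 had none. Among genes in which an S100 domain is joined to a long repeat protein, Tchh, which encodes trichohyalin, rose (0.52; edgeR, adjusted p = 0.0032), Rptn had 14 and 23 counts, and Flg2, Hrnr, Tchhl1 and Crnn had none.

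**Figure D3:**
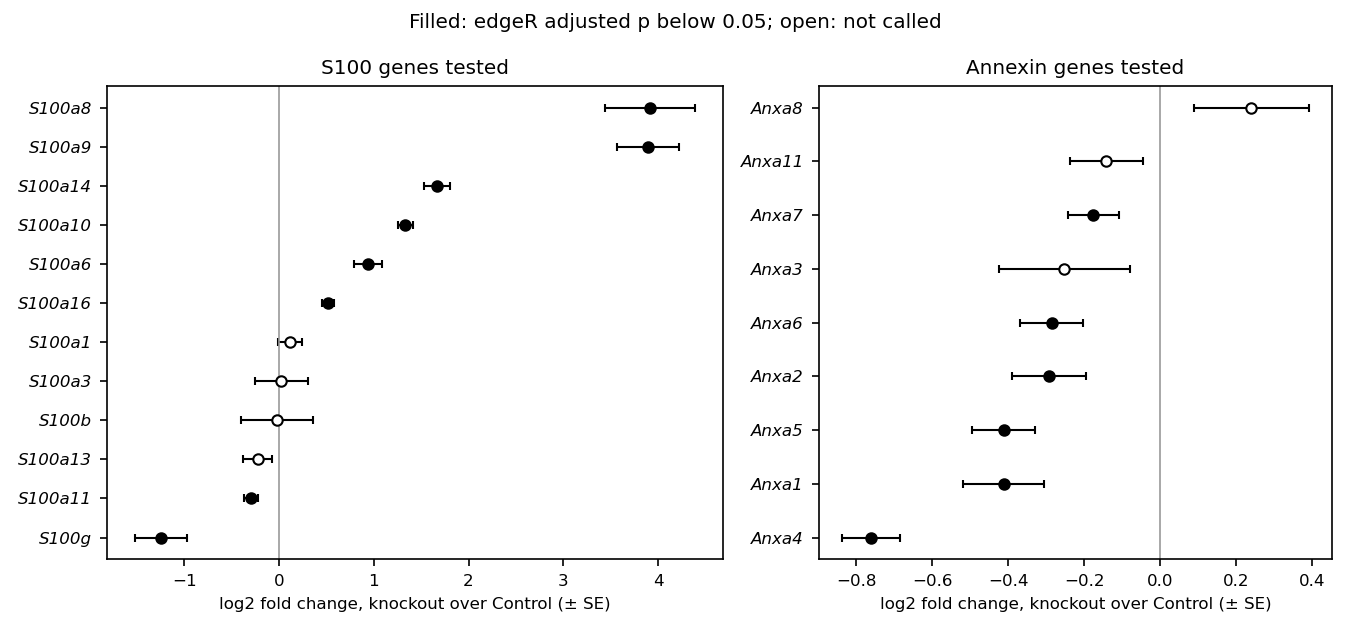
Log2 fold change, knockout over Control, with its SE for the 12 S100 genes (left) and 9 annexin genes (right) that were tested; filled points passed the edgeR test at an adjusted p of 0.05. S100 genes run from -1.25 for S100g to 3.91 for S100a8, while all 6 called annexins lie below 0.

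Annexins, the calcium-dependent membrane-binding partners of several S100 proteins, did not follow the S100 increases. Of 12 genes, 9 were tested, of which 6 fell, 0 rose and 3 did not pass, with a median log2 fold change of -0.29. Over all tested genes 42.9% were called, 21.8% lower and 21.1% higher. The annexin count is a description only. Anxa4 fell from 172 ± 20.2 to 102 ± 2.20 CPM (-0.76; edgeR, adjusted p = 1.15e-06), and Anxa5 (-0.41), Anxa1 (-0.41), Anxa6 (-0.29) and Anxa7 (-0.18) fell less, with adjusted p from edgeR of 9.06e-04, 0.0061, 0.0113 and 0.047. Anxa8 (0.24) and Anxa3 (-0.25) did not pass; without Control library 4, whose Anxa8 level was far above the others, Anxa8 was called higher (0.41; edgeR, adjusted p = 3.87e-04). With the mesenchymal level as a covariate, 2 of the 9 annexins, Anxa4 and Anxa5, were called lower, and with the Y-linked level 3 were. The mesenchymal level did not overlap between the groups, so that fit can hardly separate it from genotype. With libraries scaled by total count alone, 3 annexins were called lower and the median was -0.18, on a scale where the median of all genes moved to 0.11; 1 annexin was called lower and 1 higher among libraries with low Y-linked transcripts.

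S100a10 and its partner Anxa2 therefore moved apart. Anxa2 was at 187, 152, 171, 229, 159 and 151 CPM in Control and at 145, 144, 148, 145 and 131 CPM in knockout libraries (log2 fold change -0.29, SE 0.097; edgeR, adjusted p = 0.025). That decrease was not called under 9 of 27 alternatives, among them leaving out Control library 1 (edgeR, adjusted p = 0.0516) or knockout library 5 (0.0668); over all 27 the adjusted p from edgeR and the other tools ran from 0.00547 to 0.396. The ratio of S100a10 to Anxa2 within a library, which does not depend on how libraries are scaled, was 0.298, 0.357, 0.303, 0.281, 0.309 and 0.297 in Control and 0.981, 0.951, 0.863, 0.982 and 0.925 in the knockout. Every knockout ratio was more than 2-fold above every Control ratio. The mean log2 ratio differed by 1.61, a 3.06-fold difference. The exact permutation test over libraries (two-sided) gave p = 0.00216, the smallest these libraries can give, and 0.00433 adjusted over the 2 ratios examined. The ranges of S100a10 and Anxa2 were already apart in opposite directions, so this p was fixed by them and adds no separate evidence. Per kilobase of exon, the mean ratio went from 0.947 to 2.90.

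The ratio of S100a11 to its partner Anxa1 did not differ beyond its spread. It was 1.19, 0.883, 0.926, 0.934, 1.00 and 1.28 in Control and 0.979, 1.29, 1.04, 1.21 and 1.05 in the knockout, with overlapping ranges. The mean log2 ratio was 0.037 ± 0.216 (SD, n = 6) and 0.146 ± 0.166 (n = 5), a difference of 0.11 (exact permutation test over libraries, two-sided, p = 0.387; 0.387 adjusted over the 2 ratios).

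**Figure D4:**
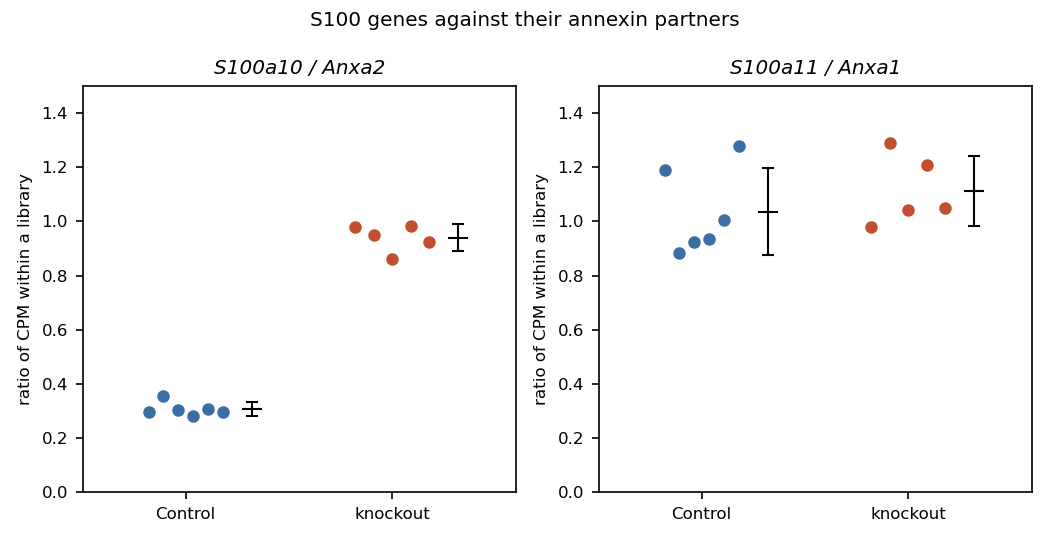
Ratio of CPM within each library for S100a10 over Anxa2 (left) and S100a11 over Anxa1 (right), with 6 Control libraries in blue, 5 knockout libraries in red and bars for mean ± SD; both axes start at 0. The S100a10 ratio runs from 0.281 to 0.357 in Control and from 0.863 to 0.982 in the knockout, and the S100a11 ratios overlap.

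Receptors and other partners of S100 proteins were called in both directions: of 15 genes, 14 were tested, 6 rose, 2 fell and 6 did not pass. Over all tested genes 21.1% rose and 21.8% fell, and these counts are a description only. The S100a10 and annexin A2 complex is known as a docking site for plasminogen and its activator at the cell surface. Plaur, the urokinase receptor gene, ran from 15.0 to 28.8 CPM in Control and from 65.3 to 81.8 CPM in knockout libraries (1.78; edgeR, adjusted p = 8.49e-07). Plat, the tissue plasminogen activator gene, rose from 1.52 ± 0.498 to 5.66 ± 0.791 CPM (1.89; edgeR, adjusted p = 4.88e-06). Plasminogen itself, Plg, had no counts, and Plau, at 0.79 on the log2 scale, did not pass (edgeR, adjusted p = 0.137). Kcnk3, a potassium channel gene whose product S100a10 binds, rose from 6.78 ± 1.498 to 13.9 ± 1.02 CPM (1.02), and Ahnak, a large scaffold protein of the same complex, rose from 1127 ± 238 to 1856 ± 302 CPM (0.72).

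Among receptors, Ager, which encodes RAGE and is itself a marker of alveolar type 1 cells, rose from 413 ± 86.3 to 645 ± 64.4 CPM (0.65; edgeR, adjusted p = 9.89e-04). Mcam, whose product binds calprotectin, rose from 16.1 ± 5.17 to 44.9 ± 4.75 CPM (1.46; edgeR, adjusted p = 9.50e-06). Cd36 (-1.53) and Bsg (-0.52) were the 2 that fell. Myh9, a target of S100a4, was at 849 ± 51.7 and 823 ± 47.2 CPM (-0.044) and Alcam stood at -0.22; neither passed, though Alcam did without Control library 6 (-0.29; edgeR, adjusted p = 0.00594).

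Calcium transport genes were set beside S100g. Of 15 genes, 12 were tested, 5 rose, 3 fell and 4 did not pass, where 21.1% of all tested genes rose and 21.8% fell. The counts are a description only. Trpv6, the apical calcium channel that works with calbindin-D9k in the gut, was at 26.8 to 54.1 CPM in Control and 10.9 to 17.6 CPM in the knockout (log2 fold change -1.59, SE 0.17; edgeR, adjusted p = 4.88e-06). Vdr, the vitamin D receptor gene, was at 17.1 to 27.0 and 6.82 to 9.60 CPM (-1.46, SE 0.14; edgeR, adjusted p = 5.88e-07). Both groups of ranges were apart, in the direction of S100g. Atp2b1, a plasma-membrane calcium pump gene, rose from 254 ± 30.0 to 472 ± 21.98 CPM (0.89), and the sodium-calcium exchanger genes Slc8a1 (2.48), Slc8a2 (2.95) and Slc8a3 (5.51) rose as well. Slc8a3 went from 1.97 ± 0.614 to 90.1 ± 11.98 CPM. Atp2a2, which pumps calcium into the endoplasmic reticulum, was at 398 ± 54.8 and 374 ± 17.8 CPM and did not pass, nor did Atp2b4 (0.36), which was called without Control library 6 (0.54; edgeR, adjusted p = 0.00141). Atp2a3 (0.86) and Calb2 (-0.31) were the remaining genes called.

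Within the groups, several S100 genes moved together from library to library. Deviations of log2 CPM from the group mean were correlated at r = 0.945 for S100a10 and S100a14, 0.922 for S100a1 and S100a16, 0.922 for S100a6 and S100g and 0.905 for S100a6 and S100a10, over 11 libraries. S100g thus shared its library-to-library deviations with S100a6, S100a10 (0.822) and S100a14 (0.886), while its group difference had the opposite sign to theirs. The lowest values were those of S100a11 with S100a8 (-0.147) and S100a9 (-0.30). The points share library depth and composition: Control library 4 was high and Control libraries 5 and 6 were low for S100a6, S100a10, S100a14 and S100g. The sum of 9 alveolar type 1 markers was also lowest in Control libraries 5 and 6, at 5885 and 5384 CPM. The other Control libraries were at 7289 to 8590 CPM. That was not particular to type 1 markers. In the same libraries the type 2 (8643 and 7020 CPM), epithelial (5533 and 5417 CPM) and mesothelial sums (154 and 169 CPM) were lowest too. Not every list followed: the mesenchymal sum was at 294 and 426 CPM. The part of these marker levels in the correlations was not tested.

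By the same measure over 9711 genes, those nearest to S100a14 were Cnn2 (r = 0.981) and Hbegf (0.977), and those nearest to S100a10 were Hbegf (0.955) and Dmkn (0.95). Hbegf, which encodes an EGF receptor ligand, was nonetheless at 401 CPM in Control and 413 CPM in the knockout (log2 fold change 0.042), and Cnn2 had a log2 fold change of -0.073, so neither had a called difference between the groups. Dmkn, which encodes dermokine, rose with S100a10, from 8.12 to 48.8 CPM (2.61). The nearest to S100a6 were Rragc (0.958) and Scnn1b (0.955), to S100a16 Golga7 (0.973) and Nadk (0.958), to S100a1 Golga7 (0.95) and P4hb (0.93), and to S100a11 Hmox2 (0.957) and Ttc1 (0.937).

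Of the 10 S100 genes, all but S100g lie on chromosome 3 between 90511034 and 93564643 (mm10), on either side of the epidermal differentiation complex, whose genes build the cornified layer of skin. Of 70 rows of the count table in that interval 16 passed the filter, and 6 of the 16 were not S100 genes. Those 6 were all called, 4 higher and 2 lower. Over all tested genes 42.9% were called, 21.1% higher and 21.8% lower. The count of 6 is a description only. Lce6a, a late cornified envelope gene, had 3 counts in Control and 717 in the knockout, and so passed the filter through the knockout libraries. Sprr1a, a cornified envelope precursor gene, rose from 38.5 ± 10.3 to 92.4 ± 9.43 CPM (1.26; edgeR, adjusted p = 6.01e-06), and Tchh (0.52) and Sprr2k (1.00) rose as well. Lor, which encodes loricrin, fell from 19.7 ± 4.52 to 3.63 ± 0.574 CPM (-2.44; edgeR, adjusted p = 6.92e-08). Ivl, which encodes involucrin, fell from 14.1 ± 7.33 to 3.10 ± 0.675 CPM (-2.16; edgeR, adjusted p = 2.25e-04). Genes called in either direction were thus found side by side, S100a11 (-0.30) and S100a10 (1.33) being the last 2 tested genes of the interval.

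**Figure D5:**
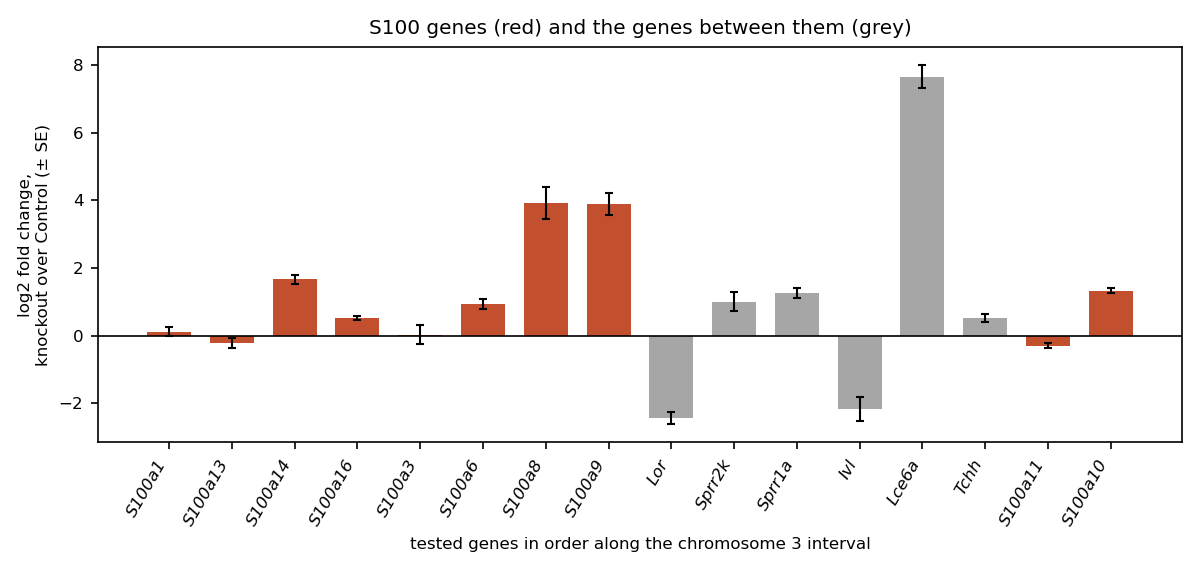
Log2 fold change, knockout over Control, with its SE for the 16 tested genes of the chromosome 3 interval that the S100 genes span, in chromosomal order and not to distance; S100 genes are red and the genes between them grey. S100a14, S100a16, S100a6, S100a8, S100a9 and S100a10 rise above 0 and S100a11 lies at -0.30, while Lor and Ivl lie below 0 among the genes between; the bar of Lce6a rests on 3 Control counts, so its height is uncertain.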

How the data were processed

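Poly(A) RNA was sequenced in 6 Control and 5 knockout libraries. The authors deposited raw counts per gene symbol (24421 rows, 27 with symbols turned into dates). The submitters' processing notes list HTSeq 2.0, DESeq2, Picard 2.18.22, SAMtools 1.10.0, Bowtie2 2.4.2, Trim Galore 0.4.2, FastQC and mm10, without roles. For the annotation, strand setting and handling of duplicate or multiply matching reads, the sources used here give nothing.

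Genes passing filterByExpr (13916) were scaled by TMM and tested with edgeR 4.0.16 in R 4.3.3 (robust quasi-likelihood F-test, two-sided, Benjamini-Hochberg, threshold 0.05). Log2 fold changes put the knockout over Control, with SE from the coefficient and its F statistic. CPM is the mean ± SD over libraries after TMM. TMM factors were 0.930 to 0.944 in Control libraries 1 to 4, and 1.016 and 1.031 in Control libraries 5 and 6. In knockout libraries they were 1.029 to 1.061, so scaling differed between the groups and among Control libraries. Coordinates and exon lengths are from GENCODE M21. The fit was tested on simulated counts.

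The S100 genes and all lists were chosen with earlier results of these data known. Named by rule were the S100 and S100-fused genes, Anxa1, Anxa2 and Ager, up to 4 called and 2 abundant uncalled genes per partner list, up to 3 interval genes in each direction, and the 2 most correlated genes per S100 gene of at least 10 CPM. Genes of the neutrophil list, Trpv6, Vdr, Atp2a3, Calb2, Ahnak, Cd36, Bsg, Plg, Plau, Anxa7, Sprr2k and S100a2 were named after their values were seen. Alternatives were other scalings, filters and thresholds, DESeq2 1.42.0, limma-voom 3.58.1, covariates, a block on replicate number, subsets by Y-linked transcripts (mean above or below 3 log2 CPM) and each library left out.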

Additional observations from a re-analysis of the deposited data

Results flagged for a closer look

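In 124 groups of 5 or 6 libraries, the gap between an extreme library and its nearest neighbour was compared with the group's range by Dixon's 95% limit, which chance passes in about 1 in 20 groups. 10 values passed. Among S100 genes, S100a11 in knockout library 2 was at 60.96 CPM against 54.4 to 55.3 CPM in the other 4. S100g in knockout library 1 was at 3.71 CPM against 4.50 to 4.61 CPM. That is 28 counts against 35 to 37, a gap within counting error. The ratio of S100a10 to Anxa2 in Control library 2 was 0.357 against 0.281 to 0.309. Anxa2 in knockout library 5 was at 131 CPM against 144 to 148 CPM. Control library 4 stood apart for Anxa8 (118.8 CPM against 59.0 to 75.1), Sprr1a (58.4 against 29.5 to 38.6) and Atp2b1 (199.7 against 252.7 to 282). Myh9 was at 952 CPM in Control library 1 against 809 to 843, Lor at 11.03 CPM in Control library 3 against 19.8 to 24.3, and Slc8a3 at 110.5 CPM in knockout library 4 against 80.1 to 88.8.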

How the results depend on the processing

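S100a1, S100a8, S100a9, S100a10, S100a14 and S100a16 kept their direction and their side of the threshold under all 27 alternatives. Their log2 fold changes ran from 3.36 to 4.48 for S100a8, 3.40 to 4.36 for S100a9, 1.245 to 1.47 for S100a10, 1.49 to 1.90 for S100a14 and 0.47 to 0.63 for S100a16. S100a6 lost its call under 1 alternative, S100a11 under 4 and S100g under 3. Among libraries with high Y-linked transcripts 5 S100 genes were called and 1802 genes in all; 3753 genes were called among those with low ones and 3214 with the mesenchymal covariate, against 5973. The mesenchymal covariate did not overlap between the groups, so calls lost with it cannot be assigned to it apart from genotype. Scaled by total count alone, 65.6% of calls were higher, against 49.2%. Leaving out single libraries gave 5375 to 6389 called genes and 8 S100 genes each time. The S100a10 to Anxa2 log2 ratio ran from 1.59 to 1.66 without single libraries; it was 1.51 and 1.72 in the low and high sets (exact permutation p = 0.0667 and 0.20, the smallest those sets allow). With the replicate number as a block it was 1.61 (exact sign-flip p = 0.0625, the smallest 5 pairs allow), and in edgeR the block gave 6197 called genes and 8 S100 genes. Deviations of same-numbered libraries correlated at -0.061, 0.097, -0.052, 0.0079 and 0.266. Depth limits S100a4, S100a8 in Control, and the S100 genes under the filter. The causes of these changes were not tested.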

Other observations

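The ratio of S100a8 to S100a9 counts ran from 0.153 to 0.339 in the 5 knockout libraries. In Control libraries, where both had few counts, it ran from 0 to 0.5. S100a7a, a relative of the skin protein psoriasin, had 23 counts in Control and 46 in the knockout and was under the filter; fitted without it, its log2 fold change was 1.02 (SE 0.42; edgeR, adjusted p = 0.0635).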
